A study of Homo sapiens with 5 samples.

Results

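*ABHD12* and the 3 genes of the ETO family, *CBFA2T3*, *CBFA2T2*, and *RUNX1T1*, were examined in TF-1, a cell line from a human AML. They were chosen by gene name, as a group of 4 among the 27328 Ensembl genes of the count table, because TF-1 is known for a *CBFA2T3-ABHD12* fusion. All 4 were found in the table by their Ensembl identifiers, and the rule itself uses no measured value. RNA was sequenced from 2 control pools, which carry Cas9 and the sgRNA sgCtrl against *Renilla luciferase*, and from 3 *MTSS1* knockout pools, which carry Cas9 and sgMTSS1_1, sgMTSS1_2, or sgMTSS1_3. The study used them to ask how loss of the scaffold protein MTSS1 changes gene expression in AML cells. Each pool held 4 single-cell clones of the same line in logarithmic growth, and each knockout pool had its own sgRNA. The knockout clones, unlike the control clones, had been picked by immunoblot for absence of the MTSS1 protein. The authors removed 1 more control pool and the sgMTSS1_4 pool after an outlier test, and these were not analysed here. A replicate is therefore a pool of clones, and p-values measure only the spread between these pools.

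ETO proteins do not bind DNA themselves. They are adaptors that connect DNA-bound transcription factors with corepressors such as NCOR1 and SIN3A and with histone deacetylases. CBFA2T3, also called ETO2 or MTG16, sits in the complex of TAL1, LMO2, LDB1, and GATA factors in erythroid and megakaryocytic progenitors and restrains their late genes. CBFA2T2, or MTGR1, is the most widely expressed member of the family, and RUNX1T1 is ETO itself, the partner of RUNX1 in the fusion of core-binding factor AML. ABHD12 is unrelated to them in function. It is a membrane serine hydrolase that degrades lysophosphatidylserine, and its inherited loss causes the neurodegenerative disorder PHARC.

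By the usual naming of fusions, a *CBFA2T3-ABHD12* transcript starts at *CBFA2T3* and ends with the 3′ end of *ABHD12*. QuantSeq 3′ libraries start from the poly(A) tail, so that a fusion transcript would be counted as *ABHD12* and an unrearranged transcript of either gene as that gene. Each mRNA molecule gives reads from its end alone, whatever its length, so that levels may be compared between genes. The counts carry no junction, and *ABHD12* reads from a fused and from an unrearranged allele cannot be told apart. In bulk samples, fewer cells with a transcript and less of it per cell cannot be told apart either.

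The start regions are shown because the fusion and the unrearranged gene would place the same *ABHD12* 3′ end behind different ones. The stretches shown are the 150 bases in front of a RefSeq start of each gene (GRCh38.p14, both on the minus strand). They lie at chr16:88941351-88941500 for *CBFA2T3* and at chr20:25390836-25390985 for *ABHD12*. Capitals mark the GC box GGGCGG and the CCAAT box, which reads ATTGG on the strand shown when it lies on the other strand.
CBFA2T3: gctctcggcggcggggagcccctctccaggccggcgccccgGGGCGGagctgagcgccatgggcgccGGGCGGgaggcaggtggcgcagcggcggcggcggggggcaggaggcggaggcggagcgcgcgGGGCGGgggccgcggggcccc
ABHD12: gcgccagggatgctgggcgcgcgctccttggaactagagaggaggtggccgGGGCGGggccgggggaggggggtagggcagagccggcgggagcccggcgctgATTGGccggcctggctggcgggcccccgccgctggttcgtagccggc

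Both stretches are rich in G and C, at 87.3% in *CBFA2T3* and 78.7% in *ABHD12*. The median was 60% in 35116 RefSeq promoter stretches of the same length, with those of chromosome 8 left out. The *CBFA2T3* and *ABHD12* stretches hold 24 and 17 CpG dinucleotides, against a median of 7. The GC box occurred 3 times in *CBFA2T3* and once in *ABHD12*, and 36.8% of all stretches hold at least 1 on either strand. The CCAAT box was found in *ABHD12* but not in *CBFA2T3*, and in 23.5% of all stretches. TATAAA (6.71% of stretches), the GATA-type words AGATAA (5.17%) and TGATAA (3.76%), the E-box CAGCTG (8.93%), and the RUNX word TGTGGT (6.59%) were found in neither, on either strand. The *CBFA2T3* stretch lies inside the span of the gene, since a longer annotated transcript starts upstream at position 88977207. It also lies inside the span of the lncRNA gene ENSG00000205018 on the opposite strand. No annotated exon overlaps either stretch, and which start a fusion transcript uses was not examined.

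The libraries differed in depth. Total counts were 2849979 to 3408827 in the control and 5442639 to 8854899 in the knockout libraries. Condition and depth cannot be told apart. A count of 3 corresponds to 0.387 to 0.932 CPM, the count relative to the library total scaled by TMM factors. *MTSS1* itself was counted at 203 and 87.4 CPM in control pools 1 and 2 and at 103, 138, and 49.6 CPM in knockout pools 1 to 3. The groups overlapped, and since Cas9 cuts the gene and need not remove its 3′ end, this count does not check the knockout. Erythroid markers summed to 992 to 1181 CPM in the control and 1211 to 1987 CPM in the knockout libraries, but without the transferrin receptor *TFRC* to 386 to 547 and 459 to 612 CPM, with overlap. *GATA1*, of the same list, was counted at 109 and 80.3 CPM in the control, against 56.1, 62.3, and 74.7 CPM in the knockout pools. *KLF1*, also of this list, went the other way, at 137 and 149 CPM against 187, 184, and 253 CPM. *TAL1*, *HBG1*, and *EPOR* overlapped between the groups. Megakaryocytic markers, mostly *ITGA2B*, summed to 96.0 to 138 and 212 to 252 CPM, while *GP1BA* and *GP9* overlapped between the groups. Myeloid progenitor markers summed to 295 to 339 and 394 to 571 CPM. Of them, *CD34*, *KIT*, and *CSF2RB* were higher in all knockout pools, *CD33* and *CSF2RA* overlapped, and *MPO* stayed at or below 1.48 CPM. Stromal or epithelial markers, nearly all *KRT18*, summed to 53.8 to 110 and 134 to 138 CPM. B lymphoid markers summed to 8.08 to 11.9 and 3.22 to 4.13 CPM and T lymphoid markers to 0.311 to 2.07 and 0.718 to 5.88 CPM. The part of these differences in the results below was not tested.

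*ABHD12* (ENSG00000100997, chr20:25294742-25390835, minus strand) had lower values in all knockout pools, without passing the test over all genes. It was counted at 45.7 CPM (95% Poisson interval 38.6 to 53.7) in control pool 1 and at 30.2 CPM (24.6 to 36.7) in control pool 2. Knockout pools 1 to 3 had 14.1 (11.5 to 17.0), 25.1 (21.1 to 29.6), and 17.5 CPM (14.2 to 21.2), from 101 to 140 reads each. Every knockout pool thus lay below both control pools, which 19.3% of all tested genes did. Mean levels were 37.9 ± 10.9 CPM (SD, n = 2) and 18.9 ± 5.67 CPM (SD, n = 3). The log2-fold change was −1.01 (SE 0.36, 95% interval −1.81 to −0.21). In edgeR's quasi-likelihood test, its p-value was 0.0182 and its Benjamini-Hochberg adjusted p over 14391 tested genes 0.128, so that it was not called. Without control pool 1 the log2-fold change was −0.67. Among all tested genes, 8.57% had a lower log2-fold change.

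*CBFA2T3* (ENSG00000129993, chr16:88874858-88977207, minus strand) had overlapping values in the groups, unlike its fusion partner. Control pools 1 and 2 had 86.1 (76.2 to 96.8) and 57.2 CPM (49.4 to 65.8). Knockout pools 1 to 3 had 59.6 (54.2 to 65.2), 89.9 (82.2 to 98.1), and 85.6 CPM (78.2 to 93.5). Each group held 1 pool below 60 CPM and at least 1 above 85 CPM. Means were 71.6 ± 20.4 CPM (SD, n = 2) and 78.3 ± 16.4 CPM (SD, n = 3), and the log2-fold change was 0.13 (SE 0.33, 95% interval −0.60 to 0.86, edgeR adjusted p 0.853). The interval leaves room for changes of either sign, and the sign itself turned to a log2-fold change of −0.11 without control pool 2 and to −0.0073 without TMM scaling.

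*CBFA2T2* (ENSG00000078699, chr20:33490075-33650036, plus strand), on the same chromosome as *ABHD12*, was counted at 36.0 (29.8 to 43.2) and 24.3 CPM (19.3 to 30.2) in the control pools. The knockout pools had 17.8 (14.9 to 21.0), 26.2 (22.1 to 30.8), and 22.5 CPM (18.8 to 26.7). Knockout pool 2 lay above control pool 2, so that the groups overlapped. The log2-fold change was −0.45 (SE 0.33, 95% interval −1.19 to 0.30, edgeR adjusted p 0.456).

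*RUNX1T1* (ENSG00000079102, chr8:91954972-92103286, minus strand) varied most among the 4 genes. Control pools 1 and 2 had 108 (96.8 to 120) and 44.1 CPM (37.3 to 51.8). Knockout pools 1 to 3 had 54.8 (49.7 to 60.2), 100 (92.3 to 109), and 44.8 CPM (39.5 to 50.6). Each group thus held a pool near 100 CPM and a pool near 44 CPM, and the Poisson intervals of high and low pools did not touch. The log2-fold change was −0.19 (SE 0.46, 95% interval −1.21 to 0.83, edgeR adjusted p 0.845). It was 0.60 without control pool 1, 0.088 without knockout pool 3, and 0.095 in a model with a block for the shared replicate number. The variation between pools beyond counting error that edgeR estimated was 36.8% for *RUNX1T1* and 27.3 to 29.3% for the other 3 genes.

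**Figure D1:**
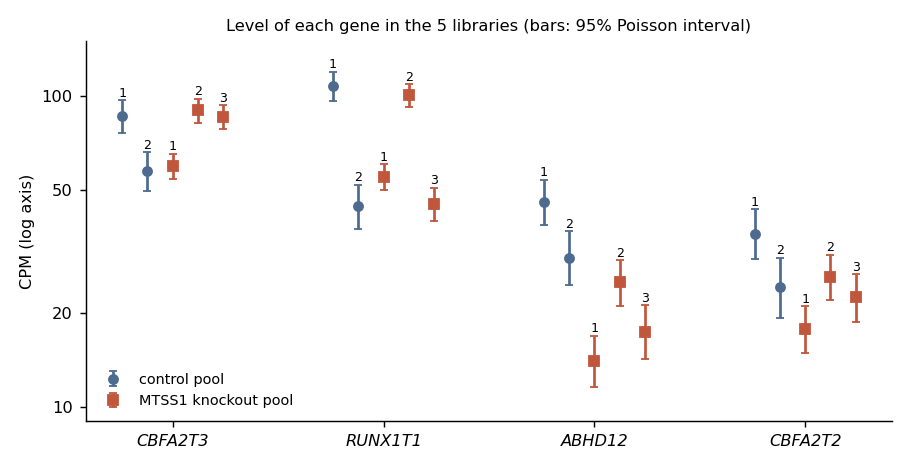
Level of the 4 genes in CPM on a log axis in control pools 1 and 2 (circles) and *MTSS1* knockout pools 1 to 3 (squares), with 95% Poisson intervals. For *ABHD12*, the knockout pools at 14.1 to 25.1 CPM lie below both control pools, while the groups overlap for the other 3 genes.

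All 4 genes passed the filter on low counts, and 0 of 4 were called at an adjusted p below 0.05 and a log2-fold change beyond 1, where 5.18% of all tested genes were called. By unadjusted p, 1 of 4 was below 0.05 in edgeR's test, namely *ABHD12*, where 23.3% of all tested genes were, and 0 of 4 were called under any of 12 alternative settings, DESeq2 included. Over these settings, the log2-fold change of *ABHD12* ranged from −1.25 to −0.67 and its adjusted p from 0.0869 to 0.346. The setting with all libraries thinned to the smallest total gave −0.97.

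The order of the levels changed with the condition at its lower end. *CBFA2T3* and *RUNX1T1* were the upper pair in all 5 libraries. They traded places between pools of the same group, and their mean levels differed by less than their SDs. *ABHD12* was above *CBFA2T2* in both control pools, whereas it was the lowest of the 4 genes in all 3 knockout pools. Within every library the Poisson intervals of *ABHD12* and *CBFA2T2* overlapped, so that this exchange of ranks was not separable from counting error in any single library. Among tested genes, *ABHD12* stood at the 70.7th percentile of mean level in the control and at the 54.6th in the knockout, *CBFA2T3* at 82.8 and 83.3, *CBFA2T2* at 66.0 and 58.3, and *RUNX1T1* at 83.7 and 80.6.

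A ratio of the fusion partners within a library does not depend on depth or scaling. *ABHD12* held 34.7% of the summed *CBFA2T3* and *ABHD12* counts in control pool 1 (95% Wilson interval 30.3 to 39.3) and 34.6% in control pool 2 (29.4 to 40.2). Its share was 19.1% (16.1 to 22.5), 21.8% (18.8 to 25.2), and 17.0% (14.2 to 20.2) in knockout pools 1 to 3. No interval of a knockout pool reached that of a control pool, and the control pools, whose *ABHD12* levels of 45.7 and 30.2 CPM differed, had nearly the same share. Means were 34.6 ± 0.066% (SD, n = 2) and 19.3 ± 2.45% (SD, n = 3), a difference of −15.3 percentage points. The control SD is far smaller than the Wilson intervals of both control pools, so that it does not measure the spread between such pools. The 2-sided exact permutation test gave p = 0.1, the smallest value that 10 splits of 2 against 3 pools allow, and 0.2 after adjustment over the 2 shares tested. With 1 library left out at a time, the difference ranged from −16.6 to −14.2 points. Without molecular identifiers, reads are no independent molecules, and these intervals cover counting error alone.

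The share was also taken against the other ETO genes. Against *CBFA2T2*, *ABHD12* held 55.9 and 55.4% of the summed counts in the control pools, against 44.1, 49.0, and 43.7% in the knockout pools. Against *RUNX1T1*, it held 29.8 and 40.6% and then at most 28.1%. The groups did not overlap in either comparison, though the gap to the nearest pool was small with *RUNX1T1*, and neither difference was tested. Both comparisons reuse *ABHD12*, whose CPM values were below both control pools in every knockout pool, as in 19.3% of all tested genes. How often such shares separate for other genes was not examined.

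Within the ETO family, *CBFA2T3* supplied 37.4 and 45.5% of the family's counts in the control pools, against 45.1, 41.5, and 56.0% in the knockout pools. The groups overlapped, at 41.5 ± 5.72% (SD, n = 2) and 47.5 ± 7.55% (SD, n = 3), and the exact permutation test gave p = 0.6 for the difference of 6.05 points (0.6 after adjustment). That difference ranged from 1.81 points without knockout pool 3 to 10.1 points without control pool 2, and was 2.01 points without control pool 1. *RUNX1T1* supplied 46.9 and 35.1% and then 41.5, 46.4, and 29.3%, again with overlap. *CBFA2T2* was the smallest part throughout, at 15.7 and 19.3% in the control, against 13.5, 12.1, and 14.7% in the knockout pools. Its groups did not overlap, and the difference of −4.09 points was not tested. Again, no background over other genes was taken for such a separation.

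**Figure D2:**
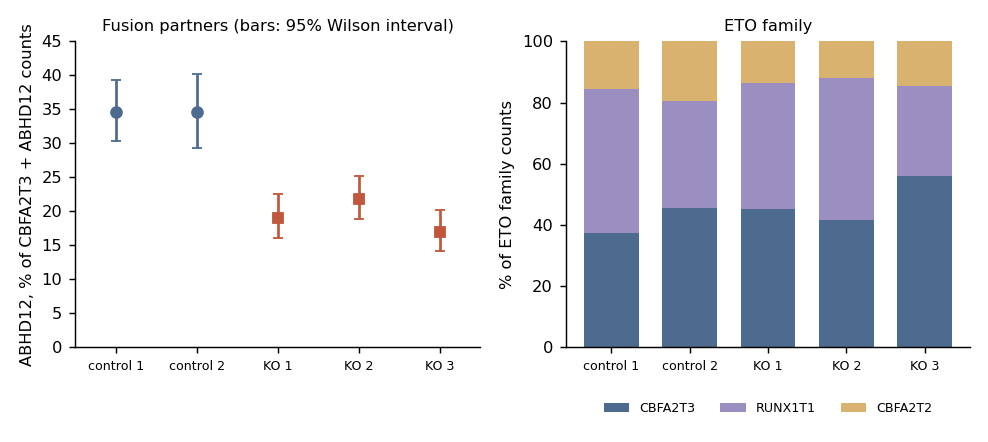
Left, *ABHD12* counts as a percentage of *CBFA2T3* plus *ABHD12* counts in control pools 1 and 2 and knockout (KO) pools 1 to 3, with 95% Wilson intervals. Right, the percentage of ETO family counts from each of its 3 genes. The *ABHD12* share lies at 34.6 to 34.7% in the control and 17.0 to 21.8% in the knockout pools, while the *CBFA2T3* share of the family overlaps between the groups.

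The annotated loci limit what these counts can hold. *ABHD12* has 17 coding transcripts in GENCODE release 44. Its MANE transcript ends at position 25300214 of chromosome 20, 2202 bases short of *PYGB*, which encodes brain glycogen phosphorylase on the opposite strand. However, 2 of the 17 transcripts reach into *PYGB*, and the gene spans share 3271 bases. Whether counting used strand is not given in the sources used here, and without it reads from the shared stretch cannot be told apart. *PYGB* was counted at 32.0 and 43.3 CPM in the control, against 22.2, 29.2, and 35.8 CPM in the knockout pools, with overlap and a log2-fold change of −0.37 (edgeR adjusted p 0.534). Its control pools stood in the reverse order of those of *ABHD12*, and the *ABHD12* share of the summed counts of both genes overlapped between the groups, at 58.8 and 41.1% against 38.8, 46.2, and 32.8%.

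*CBFA2T3* has 8 coding transcripts and is overlapped by lncRNA genes. ENSG00000205018, on the opposite strand, had 5.28 and 1.48 CPM in the control, against 6.06, 5.74, and 4.15 CPM in the knockout pools, with a log2-fold change of 0.66 (edgeR adjusted p 0.536). ENSG00000261226, on the same strand, stayed at or below 0.889 CPM and was not tested. Both were far below *CBFA2T3* in every library. *CBFA2T2* overlaps no other annotated gene, and the annotation holds no pseudogene named after any of the 4 genes. The processed pseudogene *PPIAP2* lies inside *ABHD12* on the same strand, over 492 bases. On the opposite strand, the lncRNA genes ENSG00000259881 and ENSG00000253576 overlap *CBFA2T3* and *RUNX1T1*. None of these was among the counted genes.

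The 5 nearest coding genes on each side of *CBFA2T3* and of *ABHD12* were read beside them. Of these 20 neighbours, 18 were in the table and 15 were tested, of which 0 were called by edgeR's test and 2 had an unadjusted p below 0.05 (23.3% of all tested genes). Their median log2-fold change was −0.23, against −0.03 over all tested genes, with a range from −0.92 to 0.95. In 1 of the 15 tested neighbours all knockout pools lay above both control pools and in 3 below, where 22.2% and 19.3% of all tested genes did. *ANKRD11*, a chromatin regulator and the highest of them in level, was counted at 272 and 389 CPM in the control, against 345, 434, and 410 CPM in the knockout pools, a log2-fold change of 0.26 (edgeR adjusted p 0.665).

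Values of the gene nearest to the *ABHD12* start were also lower in the knockout pools. *GINS1*, which encodes a subunit of the replicative helicase complex and was singled out after its values were seen, starts 173 bases from *ABHD12* and is transcribed away from it. It had 37.3 and 35.3 CPM in the control, against 15.3, 21.0, and 21.3 CPM in the knockout pools. All knockout pools again lay below both control pools, as in 3 of the 15 tested neighbours and 19.3% of all tested genes. The log2-fold change was −0.92 (SE 0.30, edgeR adjusted p 0.110), so that it was not called. The other neighbour with an unadjusted p below 0.05, *APMAP* (also named after its values were seen), went the opposite way, at 41.6 and 29.3 CPM in the control, against 82.8, 54.4, and 68.8 CPM in the knockout pools (log2-fold change 0.95, edgeR adjusted p 0.123). *ABHD12* held 55.1 and 46.1% of the summed *ABHD12* and *GINS1* counts in the control, against 47.8, 54.5, and 45.1% in the knockout pools, means of 50.6 and 49.1%, with overlap. This share was not tested.

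**Figure D3:**
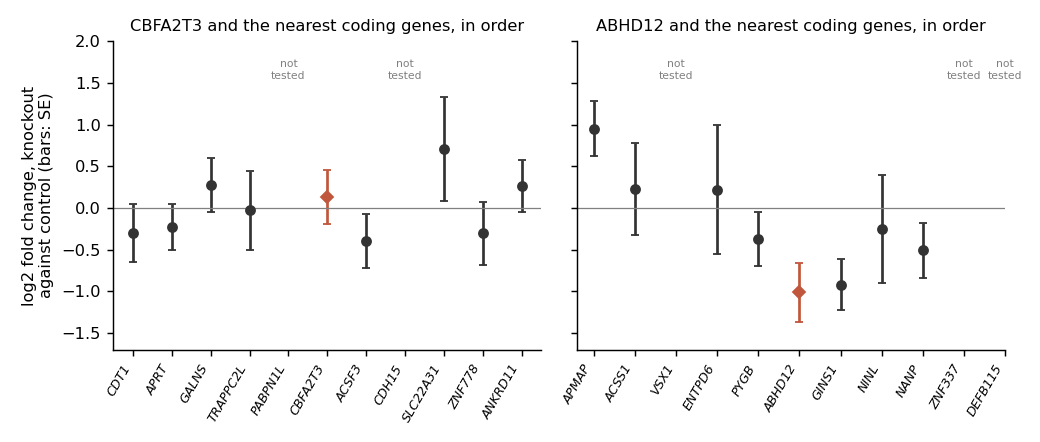
Log2-fold change, knockout against control, of *CBFA2T3* (left) and *ABHD12* (right), drawn as diamonds, and of the 5 nearest coding genes on each side in genomic order, with bars for the standard error. *ABHD12* at −1.01 and the adjacent *GINS1* at −0.92 are the lowest tested genes of their stretch, and the neighbours of *CBFA2T3* lie on both sides of 0.

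The other enzymes of the ABHD family showed no common direction. Of 20 genes, 19 were in the table and 14 were tested, and 0 were called by edgeR's test, with 3 at an unadjusted p below 0.05 (23.3% of all tested genes). The median log2-fold change was 0.15, with a range from −1.14 to 1.45, and in 4 of the 14 all knockout pools lay above both control pools and in 1 below, where 22.2% and 19.3% of all tested genes did. *ABHD2*, the most highly expressed, had 224 and 217 CPM in the control, against 226, 275, and 295 CPM in the knockout pools, a log2-fold change of 0.27 (edgeR adjusted p 0.631). *ABHD12* was thus near the lower end of its family.

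Lysophosphatidylserine and the endocannabinoid 2-arachidonoylglycerol are both substrates of ABHD12. Genes that make, degrade, or sense lysophosphatidylserine or endocannabinoids were read next. Of 13 genes, 12 were in the table and 6 were tested, with 0 called by edgeR's test and 2 at an unadjusted p below 0.05 (23.3% of all tested genes). Their median log2-fold change was −0.53, with a range from −0.91 to 1.20. The 2 genes with an unadjusted p below 0.05 stood at the ends of this range, in opposite directions. In 1 of the 6 tested genes all knockout pools lay above both control pools and in 2 below, where 22.2% and 19.3% of all tested genes did. *DAGLB*, a diacylglycerol lipase and the highest of them, had 19.9 and 35.6 CPM in the control, against 16.6, 24.6, and 18.2 CPM in the knockout pools, with overlap and a log2-fold change of −0.49 (edgeR adjusted p 0.453).

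Corepressor subunits that ETO proteins recruit were next, all of which passed the filter on low counts. Of 11 examined, 1 was called (9.09%, where 5.18% of all tested genes were called in either direction). The call was in the higher direction, as for 4.17% of all tested genes. *HDAC3*, the deacetylase that works with NCOR1, had 32.3 and 49.8 CPM in the control, against 177, 155, and 190 CPM in the knockout pools. All knockout pools lay far above both control pools, and the log2-fold change was 2.08 (SE 0.33, edgeR adjusted p 0.0131). The adjusted p rose to 0.0554 without knockout pool 1 and to 0.053 without knockout pool 3. The most highly expressed subunit, *HDAC2*, had 253 and 292 CPM in the control, against 451, 350, and 336 CPM in the knockout pools, without overlap and with a log2-fold change of 0.48 (edgeR adjusted p 0.390). Over the 11 subunits the median log2-fold change was 0.17. In 4 of 11 all knockout pools lay above both control pools and in 3 of 11 below, where 22.2% and 19.3% of all tested genes did.

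Among 18 DNA-bound partners of ETO proteins, 17 were tested and 1 was called (5.88%, where 5.18% of all tested genes were called in either direction). The call was in the higher direction, as for 4.17% of all tested genes. In 2 of the 17 all knockout pools lay above both control pools and in 4 below, where 22.2% and 19.3% of all tested genes did. *GFI1*, a repressor that binds ETO proteins, had 6.21 and 5.04 CPM in the control, against 27.3, 25.8, and 30.8 CPM in the knockout pools. The groups were far apart, and the log2-fold change was 2.31 (SE 0.36, edgeR adjusted p 0.0122). Without knockout pool 1 the adjusted p was 0.054. *GATA2*, the partner with the highest level, overlapped between the groups, at 335 and 194 CPM in the control, against 174, 203, and 253 CPM in the knockout pools. Its log2-fold change was −0.33 (edgeR adjusted p 0.601) and turned to 0.13 without control pool 1. The median over the 17 was −0.11, with a range from −1.20 to 2.31.

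**Figure D4:**
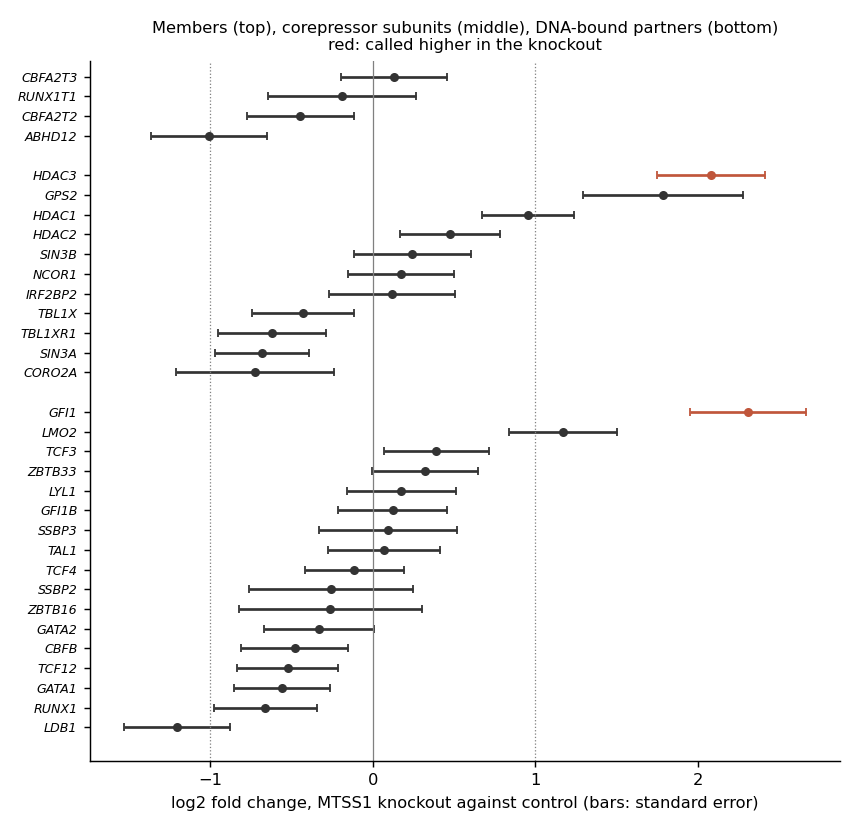
Log2-fold change, *MTSS1* knockout against control, with bars for the standard error, of the 4 genes at the top, of corepressor subunits in the middle, and of DNA-bound partners of ETO proteins at the bottom. *HDAC3* at 2.08 and *GFI1* at 2.31 are the called genes, drawn in red, while the 3 ETO family genes lie between −0.45 and 0.13.

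Of 10 erythroid genes known to be under the complex of TAL1 and CBFA2T3, 1 was called (10%, where 5.18% of all tested genes were called in either direction). The call was in the lower direction, as for 1.01% of all tested genes. *HBA1*, an alpha globin gene, had 1352 and 798 CPM in the control, against 341, 239, and 390 CPM in the knockout pools, without overlap. The log2-fold change was −1.73 (SE 0.37, edgeR adjusted p 0.03), and the adjusted p was 0.103, 0.118, and 0.0997 without knockout pool 1, 2, or 3. Its near-identical copy *HBA2*, the highest of the list, had 2014 and 4852 CPM in the control, against 1580, 1386, and 1974 CPM in the knockout pools, a log2-fold change of −1.06 (edgeR adjusted p 0.181). It was −1.55 and called without control pool 1 (edgeR adjusted p 0.0282), and −0.26 without control pool 2 (0.674). Since reads with more than 1 match were removed, the division of reads between these copies is uncertain. The control pools stood in opposite order for the copies. The median over the 10 genes was −0.41, from −1.73 to 0.76. *KLF1* and *HBG1* of this list are also among the erythroid markers given above, whose part in the difference was not tested.

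The genes whose levels ran most like each of the 4 over the 5 libraries were read from Pearson's r of log2(CPM + 1) among 8602 genes of at least 10 CPM. For *CBFA2T3* they were *CCNE1* (0.987), *GNAI2* (0.986), and *ASAP1* (0.985). For *ABHD12* they were *ZNF292* (0.998), *ZBED1* (0.998), and *B4GALT5* (0.997), and for *CBFA2T2* the gene ENSG00000257954 (0.998), *PCYT1B* (0.998), and *GLUD1* (0.998). *RUNX1T1* ran most like *MAP4K5* (0.997), *MARCKS* (0.996), and the pseudogene *NUCKS1P1* (0.991). With 5 points that share libraries and depth, many genes run alike. An r above 0.9 was reached by 536 genes with *ABHD12*, 328 with *CBFA2T2*, 133 with *CBFA2T3*, and 83 with *RUNX1T1*, so that these are descriptions and carry no test.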

How the data were processed

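The 5 TF-1 libraries comprised 2 control and 3 *MTSS1* knockout pools. The authors aligned trimmed reads to GRCh38 (HISAT2 2.1.0), kept unique alignments only (SAMtools 1.10), and deposited raw counts of reads for each Ensembl gene. FastQC 0.11.9 and DESeq2 are also named in the submitters' processing notes. Which program and annotation were used for counting, and whether strand or duplicates were considered, is not given in the sources used here. Labels assigned each library to its group, and 0 columns remained unmapped.

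The quasi-likelihood test of edgeR 4.0.16 (R 4.3.3) was run with condition as the single term after TMM scaling. The filter filterByExpr, at a minimum count of 10, retained 14391 of 27328 genes. A gene was called when its Benjamini-Hochberg adjusted p over all tested genes was below 0.05 and its log2-fold change exceeded 1 in either direction. Shares of counts were compared by exact permutation over pools. The scripts were tested on simulated data. Alternatives were DESeq2 1.42.0, other size factors, other filters, thinned libraries, a block for the replicate number, and each library left out in turn. Positions are from GENCODE release 44 and start sequences from RefSeq. Python 3.11.15 (scipy 1.17.1, pandas 2.3.3, matplotlib 3.10.9) was used for shares, sequences, and plots.

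The members and gene lists were chosen with earlier results of these data known. Named genes are the 4 members, called genes and the most highly expressed tested gene of each list, genes overlapping a member, the 3 genes most like each member, and *MTSS1*. *GINS1* and *APMAP* were added after their values were seen. 2 further genes are not reported here.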

Additional observations from a re-analysis of the deposited data

How the results depend on the processing

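*ABHD12* and *CBFA2T2* kept their direction and remained uncalled under all 12 alternatives, as did the lower *ABHD12* share under all 7. Signs that turned were those of *CBFA2T3* (−0.0073 with library size only; −0.11 to 0.46 with 1 library left out), *RUNX1T1* (0.095 with the block; −0.67 to 0.60 with 1 library left out), *GATA2* (0.13 and −0.65 without control pools 1 and 2), *MTSS1* (0.16 and −1.04), and *DAGLB* (−0.84 and 0.018). The number of all genes called was 745, but 1343 with DESeq2, 1374 without a filter, and 111 to 1340 with 1 library left out (1340 without control pool 1, 111, 347, and 191 without knockout pools 1, 2, and 3). Calls numbered 1 in each of 3 lists. For corepressors they were 2 with DESeq2 or without a filter and 0 to 2 with 1 library left out (2 without control pool 1, 0 without knockout pool 1 or 3). For DNA-bound partners they were 3 with DESeq2, 2 with library size only or without a filter, and 0 to 1 with 1 library left out (0 without knockout pool 1). For erythroid genes they were 2 with DESeq2, library size only, or at least 10 counts in every library, and 0 to 2 with 1 library left out (2 without control pool 1, 0 without any knockout pool). In the ABHD family 0 to 1 were called with 1 library left out, the 1 without control pool 1. Apart from fewer libraries or genes in the fit, the causes were not tested.

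Replicate numbers 1 and 2 occur in both groups but only share a number in the labels. Deviations from the group means correlated at 0.204 and 0.114 for equal numbers and at −0.204 to 0.145 for unequal ones. With 2 control pools the control deviations mirror each other, so that each knockout pool gives 1 value with both signs. Knockout pool 3 has no counterpart in the control. For the *ABHD12* share, the block thus gave the same difference as leaving this pool out, −14.2 points. With the number as a block, 1077 genes were called, 3 of them erythroid genes, and *ABHD12* had a log2-fold change of −0.98 (edgeR adjusted p 0.218). A fit without 1 control pool assumes that the remaining one varies like the knockout pools. Outlying pools were not tested for in groups of 2 and 3, and the exact test cannot reach 0.05.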
